A study of Mus musculus with 14 samples.

Results

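The transcripts described are those of 10 Kruppel-like factor genes, Klf2, Klf3, Klf4, Klf5, Klf6, Klf7, Klf9, Klf10, Klf13 and Klf15, chosen by name among the 37680 genes of a count table from mouse colon epithelium. These genes, and the gene lists used below, were chosen with earlier results of these data known. Epithelium was freed from the whole colon with EDTA, and poly(A) RNA was sequenced. The 14 libraries, all from adult mice, fell into 4 groups: wildtype mice that were untreated (WT water, 4 libraries), Smad4 knockout mice that were untreated (KO water, 4), wildtype mice after 3 d of 2.5% dextran sulphate sodium (DSS) in the drinking water (WT DSS, 3), and Smad4 knockout mice after the same DSS course (KO DSS, 3). In the knockout, Cre driven by the Villin promoter and switched on by tamoxifen removes Smad4 from intestinal epithelial cells only, so cells of other types in the preparation keep the gene. DSS is a sulphated polysaccharide that injures the colonic lining. All 10 genes passed the count filter of at least 10 counts in at least 3 libraries, as did 15127 genes in all. The labels do not say that each library came from a separate mouse, and the p-values measure the spread between these libraries.

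Kruppel-like factors are DNA-binding proteins with zinc fingers at the C-terminus that recognise GC-rich boxes and CACCC boxes, and they share these sites with the related Sp factors. Outside the zinc fingers the family members differ, and individual members activate or repress transcription through partners such as p300, CtBP and Sin3A. In the gut, Klf4 is known as a factor of differentiated surface and goblet cells and Klf5 as a factor of dividing crypt cells. Klf6 is induced early after injury in several tissues, and Klf10 was first described as a gene induced early by TGF-β, the pathway in which Smad4 acts.

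Total counts ran from 12882827 to 26087231 per library, and levels below are counts scaled by the TMM method of edgeR to a common library size (normalized counts). Smad4 checked the labels. It had 2372 to 3188 normalized counts in WT water, 3407 to 3650 in WT DSS, 808 to 878 in KO DSS and 702 to 936 in 3 of the KO water libraries, but the library labelled KO water replicate 1 had 3164, at the level of WT. The fold changes on water are therefore also given without it. The study's own plots name fewer KO water replicates than were deposited, and which library they leave out is not given. Mitochondrial genes held 30.6% and 32.8% of the counts in WT water replicates 3 and 4 and 21.4% in KO water replicate 4, against 4.05% to 8.23% elsewhere. The sample names carry letter prefixes whose meaning the labels do not give: all 3 KO DSS libraries, 2 WT DSS libraries and 2 WT water libraries share the prefix D. No KO water library has that prefix. Epithelial markers (Epcam, Cdh1, Vil1, Krt8, Krt18, Krt19, Cdx1 and Cdx2) summed to between 235200 and 373300 normalized counts in every library. Of markers of other cells, the endothelial list summed to 107 to 259 with Cldn5 at 0 in every library, the lymphoid list to 215 to 947, the smooth muscle list to 237.8 to 447.4, the myeloid list, most of it Cd14, to 1945 to 4335, and the adipocyte list to at most 9.63. The fibroblast list was low but uneven, at 5.52 to 37.9 in WT DSS, 144 to 260 in KO DSS, 17.9 to 81.4 in WT water and 59.7 to 496 in KO water; its part in the results below was not tested.

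The promoters of 4 of the genes are shown because the results below turn on these genes: Klf4 and Klf6 had groups that did not overlap after DSS, Klf3 was the 1 member called in the joint model, and Klf15 was the lowest of the 10. Each is the RefSeq sequence of 300 bases, from 250 before to 50 after the annotated start, on build GRCm38.p6 (the counts themselves were made on mm9), and capitals mark GC boxes (GGGCGG, or CCGCCC on the other strand) and CACCC boxes (CACCC or GGGTG). RefSeq promoters were matched for 8 of the 10 genes, all but Klf5 and Klf10.
Klf3, chr5:64803271-64803570, plus strand: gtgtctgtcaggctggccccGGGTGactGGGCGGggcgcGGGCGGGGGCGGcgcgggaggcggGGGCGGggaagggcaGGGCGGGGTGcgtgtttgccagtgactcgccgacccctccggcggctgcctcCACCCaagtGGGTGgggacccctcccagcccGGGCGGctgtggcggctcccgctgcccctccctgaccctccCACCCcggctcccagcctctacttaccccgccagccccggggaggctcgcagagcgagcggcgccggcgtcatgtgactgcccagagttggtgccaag
Klf4, chr4:55532426-55532725, minus strand: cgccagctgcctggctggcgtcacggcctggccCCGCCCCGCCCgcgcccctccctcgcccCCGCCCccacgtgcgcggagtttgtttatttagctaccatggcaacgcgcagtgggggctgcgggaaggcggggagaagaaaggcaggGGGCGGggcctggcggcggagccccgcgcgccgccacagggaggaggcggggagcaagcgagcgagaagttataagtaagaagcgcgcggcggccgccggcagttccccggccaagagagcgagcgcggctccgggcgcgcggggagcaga
Klf6, chr13:5861239-5861538, plus strand: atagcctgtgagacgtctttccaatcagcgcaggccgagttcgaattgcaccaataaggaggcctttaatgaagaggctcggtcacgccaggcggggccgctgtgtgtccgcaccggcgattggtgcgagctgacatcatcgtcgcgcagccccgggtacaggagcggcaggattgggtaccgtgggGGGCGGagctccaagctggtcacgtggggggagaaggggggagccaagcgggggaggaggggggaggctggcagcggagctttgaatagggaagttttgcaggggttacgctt
Klf15, chr6:90462326-90462625, plus strand: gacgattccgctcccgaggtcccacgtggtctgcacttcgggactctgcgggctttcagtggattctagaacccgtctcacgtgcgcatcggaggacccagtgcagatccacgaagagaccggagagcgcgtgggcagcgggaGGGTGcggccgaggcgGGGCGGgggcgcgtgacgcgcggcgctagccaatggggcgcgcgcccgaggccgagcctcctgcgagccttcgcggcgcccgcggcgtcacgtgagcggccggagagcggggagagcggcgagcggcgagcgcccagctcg

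The Klf3 window had 6 GC boxes and 5 CACCC boxes, the most of the 8 promoters searched, and neighbouring or overlapping boxes appear there as 1 run of capitals. Klf4 had 4 GC boxes, and Klf6 and Klf15 had 1 each. Over the 32851 promoters of the same length, 35.7% held a GC box and 57.5% a CACCC box, both strands searched. GC content of the 8 windows was 58.3% to 76.7%, above the median of 52.7% over those promoters. The E-box CACGTG, which clock proteins and Myc bind, occurred 3 times in Klf15, 1 time in Klf4 and 1 time in Klf6, and in 7.15% of the promoters. Neither the CRE (TGACGTCA), the AP-1 site (TGACTCA) nor the palindromic Smad box (GTCTAGAC) was present in any of the 8 windows; they occurred in 1.79%, 5.2% and 0.213% of promoters. These matches are a description of letters in these windows and were not related to binding.

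Per kb of exon, Klf4 and Klf5 stood far above the other members in the colon epithelium. Over the 14 libraries Klf4 had 3060 ± 765 (SD) and Klf5 2480 ± 749 normalized counts per kb, and their ranges overlapped. The SD is the spread between libraries, and the difference of these genes within each library was not tested. Klf6 (566 ± 122) and Klf3 (561 ± 248) followed at a like level, then Klf10 (311 ± 95.7), Klf9 (219 ± 75.4) and Klf13 (183 ± 28.3). Klf2 had 40 ± 20.3, Klf7 20.4 ± 7.15 and Klf15 6.19 ± 4.04 normalized counts per kb. Klf4 alone made up 31.3% to 52.4% of the summed level per kb of the 10 members in a library, and Klf5 26.1% to 38.9%.

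Among relatives not on the list, Sp3 (272 normalized counts per kb), Sp1 (217) and Klf16 (188) lay beside Klf9 and Klf13. Klf11 had 30.4, Klf12 18.3 and Sp4 15.1. Klf14, Sp6, Sp8 and Sp9 had no count in any library. Klf15 rested on 0 to 46 raw counts per library, and its values are the least precise of the 10. Exons of Klf7 overlap those of Gm17427, on the other strand, by 3196 bases; Gm17427 had 0 counts in every library, and the strand setting of the counting is not given in the sources used here.

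**Figure D1:**
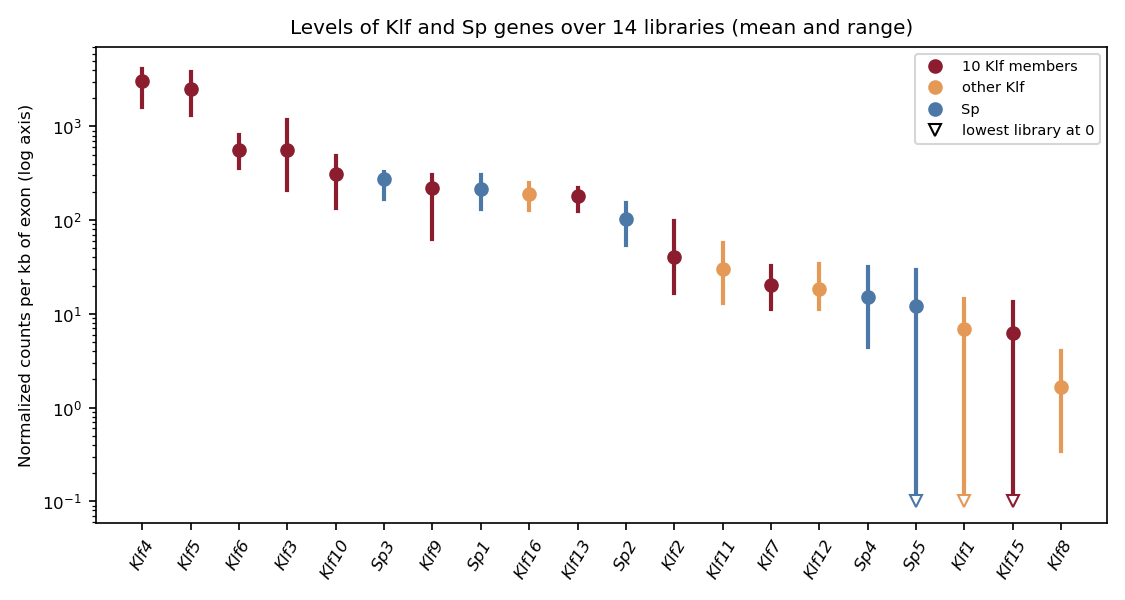
Normalized counts per kb of exon (log axis) of 10 Klf members, other Klf genes and Sp genes, as the mean (points) and the range (lines) over 14 libraries, in order of the mean; open triangles mark genes whose lowest library had 0. Klf4 (3060) and Klf5 (2480) lie above the rest, and Klf15 (6.19) is the lowest member.

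After DSS, the Smad4 KO epithelium had lower values of Klf4 and Klf6 and higher values of Klf10 than WT, and in each of these the 3 KO libraries lay apart from the 3 WT libraries. The differences were moderate, at 0.715-fold for Klf4, 0.675-fold for Klf6 and 1.56-fold for Klf10, and their call depended on the test. None of the 10 members passed an adjusted p of 0.05 in the edgeR model of all 14 libraries, where 0.0132% of all tested genes did, and Klf6 and Klf10 were the 2 members with an unadjusted p below 0.05, beside 4.43% of all tested genes. In the same direction, DESeq2 on the 6 DSS libraries called all 3. Smad4, the deleted gene, was itself not called in the edgeR model of all libraries (log2 fold change -2.05, standard error 0.43, adjusted p = 0.208). In edgeR on the 6 DSS libraries the adjusted p of Smad4 was 1.5e-05. In these bulk samples, fewer cells of a type and less RNA per cell cannot be told apart.

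Klf4, the surface and goblet cell factor, had 11020, 11650 and 12660 normalized counts in WT DSS and 8024, 9305 and 7917 in KO DSS. The highest KO library lay below the lowest WT library, and the group means were 11780 ± 827 (SD, n = 3) and 8415 ± 772 (SD, n = 3). The log2 fold change was -0.48 (standard error 0.27), with an adjusted p of 0.999 in the edgeR model of all libraries. It was -0.48 with an adjusted p of 0.0943 in edgeR on the 6 DSS libraries and 0.00137 in DESeq2 on those libraries.

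Klf6, a factor induced early after injury, had 2885, 2443 and 2893 normalized counts in WT DSS and 1713, 2099 and 1737 in KO DSS. All KO libraries again lay below all WT libraries, with means of 2740 ± 257 (SD, n = 3) and 1850 ± 216 (SD, n = 3). Its log2 fold change was -0.57 (standard error 0.19; edgeR adjusted p = 0.711), with adjusted p-values of 0.0622 in edgeR and 9.63e-04 in DESeq2 on the 6 libraries. Klf6 was the member with the smallest p in this comparison in each of the 3 tests.

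Klf10, the early TGF-β-induced gene, went the other way, with 943, 1168 and 966 normalized counts in WT DSS and 1846, 1658 and 1281 in KO DSS. The lowest KO library, replicate 3, stood only a little above the highest WT library. Means were 1026 ± 124 (SD, n = 3) and 1595 ± 288 (SD, n = 3), and the log2 fold change was 0.64 (standard error 0.26; edgeR adjusted p = 0.999). In edgeR on the 6 libraries the adjusted p was 0.0941, and in DESeq2 it was 0.00288.

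Of the other members, none separated the genotypes after DSS. Klf5, the crypt factor, stood at 4617 ± 887 normalized counts (SD, n = 3) in WT DSS against 4577 ± 1020 (SD, n = 3) in KO DSS, a log2 fold change of -0.01 (standard error 0.33). Klf13, a repressor that works through Sin3A, and Klf9, which glucocorticoids induce, had log2 fold changes of 0.06 (standard error 0.19) and -0.04 (standard error 0.34). For Klf5 and Klf9 a difference as large as that of Klf6 lay within 2 standard errors of 0. Klf2, Klf3, Klf7 and Klf15 had log2 fold changes of -0.26, 0.12, 0.25 and 0.32, and their groups overlapped.

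Groups that do not overlap were common in this comparison: 21.7% of all tested genes had them, against 3 of the 10 members. Under the adjusted p of 0.05, edgeR on the 6 libraries called 0.747% of genes and 0 of the members, and DESeq2 called 3.49% of genes and the 3 members named. Within the prefix D, where 3 KO DSS and 2 WT DSS libraries can be set side by side, the ratio of means was 0.742 for Klf4, 0.694 for Klf6 and 1.51 for Klf10. No DSS library had a high mitochondrial share. Leaving out any 1 library left the log2 fold change between -0.56 and -0.43 for Klf4, between -0.67 and -0.51 for Klf6 and between 0.52 and 0.77 for Klf10.

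**Figure D2:**
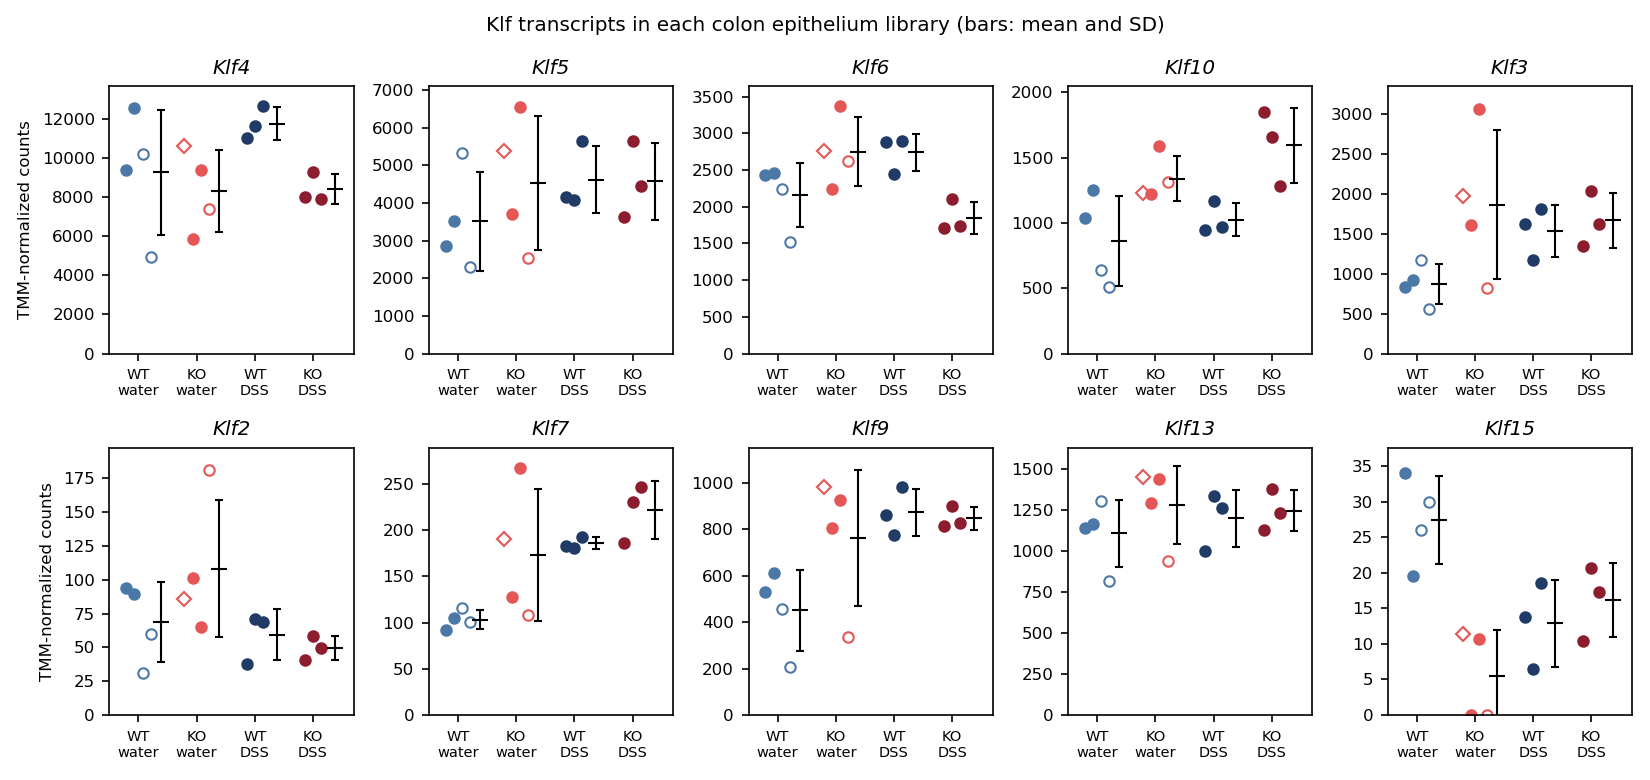
Normalized counts of the 10 Klf members in each library (points), with the mean and SD of each group (bars); open circles are libraries with over 20% mitochondrial counts and the open diamond is the library labelled KO water replicate 1. KO DSS points lie below WT DSS for Klf4 and Klf6 and above them for Klf10, and Klf15 points are highest in WT water.

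The genes related to these members, taken by list, gave the surroundings of that pattern. As the lists were chosen with earlier results of these data known, their counts and medians are a description and not a test. All 9 surface colonocyte genes, the cells in which Klf4 is known to act, had lower values in KO DSS than in WT DSS. Their median log2 fold change was -0.34 against -0.00058 over all tested genes, although 0 of 9 were called by edgeR and 4 had an unadjusted p below 0.05. Of the most abundant, Muc13, a membrane mucin, had -0.21 (standard error 0.20), Ceacam1, an adhesion molecule, -0.07 (0.32), Cdhr5, a brush border protocadherin, -0.37 (0.16), and Guca2a, the precursor of guanylin, -0.20 (0.31). Larger differences, picked after their values were seen, were those of Krt20 (-0.86, standard error 0.19), the carbonic anhydrase Car4 (-1.03, 0.25) and the water channel Aqp8 (-1.004, 0.21). Of the 7 goblet cell genes, the other cells in which Klf4 is known to act, 5 were lower and 2 higher in KO DSS, with a median of -0.16, 0 called and 3 at an unadjusted p below 0.05. The most abundant were Muc2, the main secreted mucin (-0.16, standard error 0.33), Fcgbp, a mucus protein (-1.16, 0.32), Agr2, which folds mucins (0.36, 0.23), and Zg16, a mucus lectin (-1.10, 0.42). The summed counts of the 7 goblet cell genes were 284000 to 314300 in WT DSS and 233300 to 243600 in KO DSS. Muc2 made up most of that sum, and its own groups overlapped, at 151300 to 200900 in WT DSS and 141400 to 163900 in KO DSS. The 8 general epithelial markers were also all lower, with a median of -0.12 and 0 called.

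Of the 14 immediate early genes, the company in which Klf2, Klf4, Klf6 and Klf10 are often induced, 12 were lower and 2 higher in KO DSS (median log2 fold change -0.18, 0 called). Of the 10 tested genes of TGF-β and BMP feedback, 8 were lower and 2 higher, with a median of -0.38 and 0 called, and Id1, which BMP signals induce through Smad4, had -1.46 (standard error 0.47, edgeR adjusted p = 0.711). The value of Klf10 lay on the other side of 0 from the median of that list. The list joins genes of both pathways, so its median does not stand for the TGF-β genes alone. Its 2 higher genes, picked after their values were seen, were Skil and Pmepa1, with overlapping groups. Skil had 1138 to 1357 normalized counts in WT DSS and 1250 to 1409 in KO DSS, and Pmepa1 365 to 739 and 496 to 720. The 9 proliferation genes, beside which Klf5 is usually placed, had a median of 0.03, with 6 higher, 3 lower and 0 called. Of the 8 crypt base genes 6 were higher and 2 lower (median 0.18), and 1, Smoc2, was called (1.53, standard error 0.21, edgeR adjusted p = 0.0107). Over all tested genes 0.0132% were called. Without WT DSS replicate 1, or without any single KO DSS library, 0 genes were called in this comparison, Smoc2 included.

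**Figure D3:**
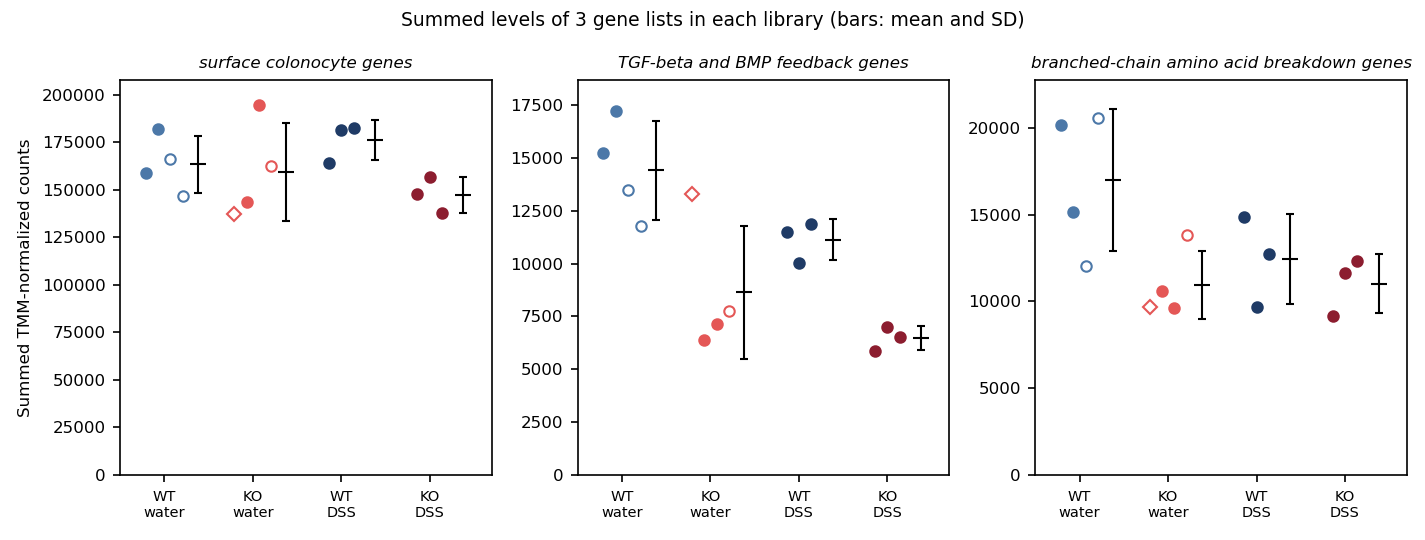
Summed normalized counts of the surface colonocyte, the TGF-β and BMP feedback and the branched-chain amino acid breakdown genes in each library (points) with group mean and SD (bars); open circles and the open diamond as for the single genes. KO DSS libraries (137700 to 156800) lie below WT DSS (164000 to 182600) for surface colonocyte genes, and the library labelled KO water replicate 1 (13270) lies with WT for the feedback genes.

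On water, Klf3, a repressor that recruits CtBP, had a fitted level in the libraries labelled KO at 2.14-fold that of WT. It was the 1 member called in the model of all libraries, where 8.44% of tested genes were called. That call was kept in 1 of the 14 fits with 1 library left out. Klf7, Klf9 and Klf10 had fitted values of 1.69-fold, 1.68-fold and 1.55-fold and Klf15 of 0.216-fold, each with an adjusted p above 0.05. Of the 10 members 8 had a higher and 2 a lower fitted level in KO water, with a median log2 fold change of 0.50 against -0.01 over all tested genes. With 6 of the 10 at an unadjusted p below 0.05 the members stood beside 29.3% of all tested genes.

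Klf3 had 836, 918, 1170 and 554 normalized counts in WT water and 1968, 1610, 3063 and 817 in KO water. Only KO water replicate 4, with a high mitochondrial share, fell within the WT range. Means were 869.8 ± 254 (SD, n = 4) and 1864 ± 933 (SD, n = 4), and 1830 ± 1140 (SD, n = 3) without the library labelled KO water replicate 1. The log2 fold change was 1.10 (standard error 0.31, edgeR adjusted p = 0.0424), and DESeq2 on the 8 water libraries called it too, with an adjusted p of 0.0337. The call was close to the threshold: it was lost in edgeR on the water libraries alone (adjusted p = 0.157) and without the library labelled KO water replicate 1 (0.062), and it was kept without KO water replicate 4 (0.00262) but in none of the models that left out another library.

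Klf9 and Klf7 shared the shape of Klf3. Klf9 had 528, 610, 456 and 208 normalized counts in WT water and 979, 805, 925 and 336 in KO water, with replicate 4 the lowest of each group. Klf7, known from neuronal development, had 91.9, 105, 116 and 101 in WT water and 190, 128, 267 and 108 in KO water. In each gene KO water replicates 2 and 3 and the library labelled KO water replicate 1, whose Smad4 was at the WT level, lay above every WT library, and KO water replicate 4 did not. The log2 fold changes were 0.75 (standard error 0.30, edgeR adjusted p = 0.115) for Klf9 and 0.75 (0.25, adjusted p = 0.0629) for Klf7. Without the 3 libraries of high mitochondrial share, a choice made after seeing the data, edgeR called Klf3 (1.34, adjusted p = 0.0102), Klf7 (1.00, 0.0309) and Klf9 (0.67, 0.0126); with that share as a covariate it called none of them.

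Klf10 had 1037, 1255, 639 and 512 normalized counts in WT water and 1229, 1225, 1591 and 1313 in KO water. The 4 libraries labelled KO water, the one with Smad4 at the WT level among them, ran from 1225 to 1591, while WT ran from low values in replicates 3 and 4, of high mitochondrial share, up to a value inside the KO range. Its fitted log2 value, 0.63 (standard error 0.23) with an edgeR adjusted p of 0.08, stood beside 0.64 after DSS and was 0.24 (adjusted p = 0.391) without the 3 libraries of high mitochondrial share. Klf2, known from endothelium and resting lymphocytes, had a fitted log2 fold change of 0.63 (adjusted p = 0.279) that turned to -0.13 without those libraries; its highest value, 180.9 normalized counts, was in KO water replicate 4.

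Klf15, a factor of amino acid breakdown that fasting and glucocorticoids induce, was the member that was lower in KO water without overlap. It had 34.1, 19.5, 26.1 and 29.97 normalized counts in WT water and 11.5, 0, 10.7 and 0 in KO water. Every KO library, the one labelled replicate 1 included, lay below every WT library. Means were 27.4 ± 6.19 (SD, n = 4) and 5.54 ± 6.4 (SD, n = 4), from 14 to 46 raw counts in WT and 0 to 13 in KO. The fitted log2 fold change was -2.21 (standard error 0.79; edgeR adjusted p = 0.0801), and DESeq2 on the water libraries gave it no adjusted p because of its low counts. Groups did not overlap for 10.4% of all tested genes and for 1 of the 10 members.

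Klf4, Klf5, Klf6 and Klf13 overlapped between the genotypes on water. Klf4 stood at 9282 ± 3210 normalized counts (SD, n = 4) in WT water against 8334 ± 2110 (SD, n = 4) in KO water, a log2 fold change of -0.16 (standard error 0.23). Klf6 had 2163 ± 438 (SD, n = 4) and 2752 ± 472 (SD, n = 4), and its log2 fold change was 0.35 (standard error 0.16; edgeR adjusted p = 0.166), so that the sign of its fitted value on water was the opposite of that after DSS. Klf5 had 0.37 (0.28) and Klf13 0.21 (0.17). In edgeR on the water libraries alone 0.00661% of genes and 0 members were called, and in DESeq2 5.32% of genes and Klf3 alone among the members.

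The water libraries also share prefixes in part, and within these the direction could be read for single libraries. Between WT water replicate 3 and KO water replicates 1 and 2 (prefix Z), the ratio of KO to WT was 1.53 for Klf3, 1.37 for Klf7, 1.96 for Klf9, 1.92 for Klf10 and 0.22 for Klf15. Between the replicates 4 (prefix MP) it was 1.47 for Klf3, 1.07 for Klf7, 1.62 for Klf9 and 2.57 for Klf10, and Klf15 was at 0 in KO. Klf2 stood at 3.02 in each of the prefixes, while Klf4 and Klf5 had 0.807 and 0.85 in Z and 1.5 and 1.09 in MP. The KO side of prefix Z includes the library labelled KO water replicate 1; with KO water replicate 2 alone, a choice made after seeing the data, the ratio was 1.38 for Klf3, 1.1 for Klf7, 1.76 for Klf9, 1.92 for Klf10, 3.27 for Klf2, 0.575 for Klf4 and 0.695 for Klf5, and Klf15 was at 0 in KO. Both WT libraries here are of high mitochondrial share. Without the library labelled KO water replicate 1, the log2 fold changes on water were 1.07 for Klf3, 0.71 for Klf7, 0.60 for Klf9, 0.67 for Klf10, 0.73 for Klf2 and -2.77 for Klf15, and edgeR called none of them.

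The lists of genes related to Klf15 and to Klf3 were then counted on water. All 7 genes of branched-chain and related amino acid breakdown, which Klf15 is known to regulate in muscle and liver, were lower in KO water (median log2 fold change -0.64), and edgeR called 3: Gpt, alanine aminotransferase (-1.15, standard error 0.23, adjusted p = 0.0218), Bcat2, the mitochondrial branched-chain aminotransferase (-0.70, 0.16, 0.0279), and Prodh, proline dehydrogenase (-0.50, 0.15, 0.0463). Gpt had 864 to 1426 normalized counts in WT water and 416 to 819 in KO water, without overlap. Of the 9 corepressor and coactivator genes, among them Ctbp1 and Ctbp2, 0 were called, with 6 higher and 3 lower. Of 6 genes for the turnover of Klf proteins, edgeR called 3 as higher: the deubiquitinase Usp9x (1.34, standard error 0.36, adjusted p = 0.037), and the ubiquitin ligases Wwp1 (0.76, 0.15, 0.0214), which targets Klf5 and Klf2, and Itch (0.58, 0.14, 0.0309). These 3 of 7 and 3 of 6 stand beside 8.44% of all tested genes called. That is a description and not a test, since the lists were chosen with earlier results of these data known. Without KO water replicate 2, KO water replicate 3 or WT water replicate 4, 0 genes of either list were called. Nor were any in edgeR on the water libraries alone or with the mitochondrial share as covariate. In the 14 fits with 1 library left out, Prodh was called in 2, Usp9x in 5 and Bcat2 in 10. Gpt, Wwp1 and Itch were called in 11 each. DESeq2 on the water libraries alone called Gpt, Bcat2, Wwp1 and Usp9x.

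None of the 5 tested other Klf genes was called on water, and of the 5 tested Sp genes Sp4 was called (1.21, standard error 0.33, edgeR adjusted p = 0.0391). Of the 9 glucocorticoid-induced genes, the setting in which Klf9 and Klf15 are induced, 7 were lower and 2 higher, and the 1 called was Sult1a1, a sulfotransferase (-1.90, standard error 0.32, adjusted p = 0.0191). Of the 12 tested clock genes 5 were higher and 7 lower, and Clock was called (0.77, standard error 0.19, adjusted p = 0.0318). Of the 10 tested feedback genes of TGF-β and BMP, Skil was called as higher (1.02, standard error 0.18, adjusted p = 0.0214), and Id1 (-1.46, 0.41, 0.0411) and Smad6 (-1.15, 0.32, 0.0411) as lower. Among surface colonocyte genes Cdhr5 was called as lower (-0.65, standard error 0.14, adjusted p = 0.0243), 1 of 9. Of the 7 goblet cell genes 6 were lower and 1 higher in KO water, and 0 were called (median log2 fold change -0.61). The 7 calls from Sp4 to Cdhr5 were likewise absent from edgeR on the water libraries alone and from the model with the mitochondrial share as covariate. They were also absent from the models without KO water replicate 2, KO water replicate 3 or WT water replicate 4. In the 14 fits with 1 library left out, Id1 was called in 2, and Sp4 and Smad6 in 3 each. Skil, Clock, Sult1a1 and Cdhr5 were called in 11 each. DESeq2 on the water libraries alone kept all of the 7 calls but Id1.

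**Figure D4:**
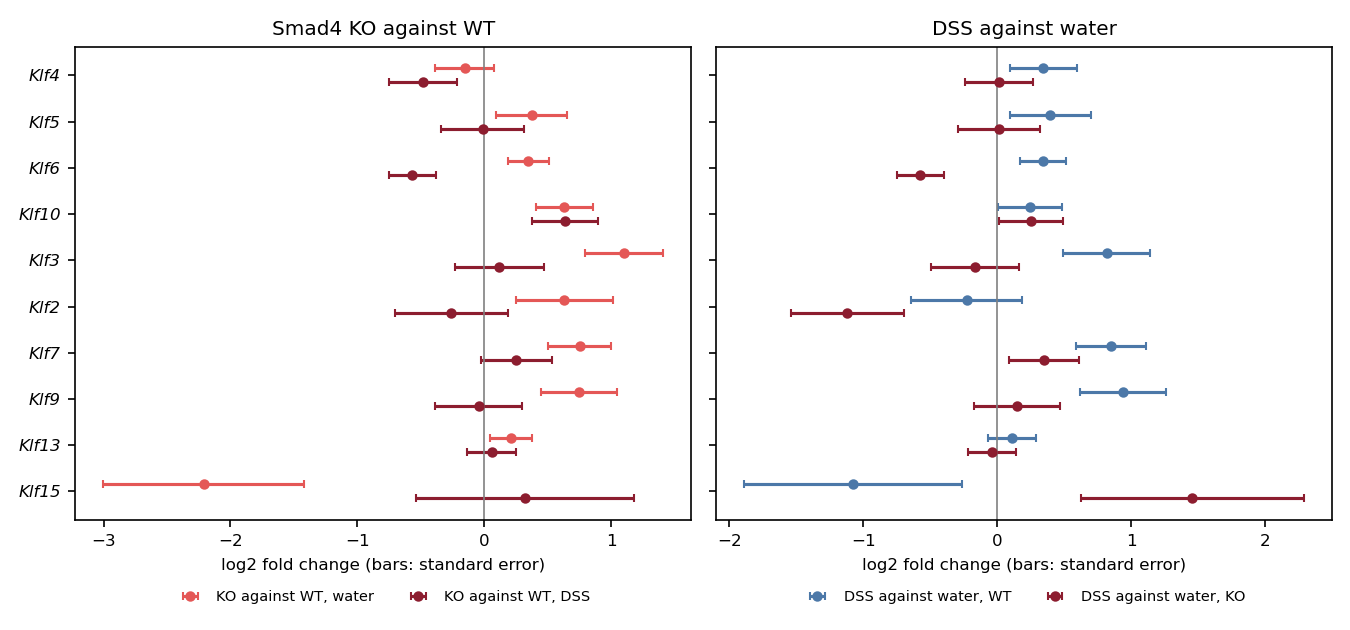
Log2 fold change of each Klf member in edgeR on all 14 libraries (points, with the standard error as bars), for Smad4 KO against WT on the left and for DSS against water on the right. Klf6 lies on opposite sides of 0 on water (0.35) and after DSS (-0.57), and Klf3, Klf7 and Klf9 lie to the right in WT after DSS (0.82, 0.85 and 0.94).

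In WT mice, 3 d of DSS went with higher Klf3, Klf7 and Klf9, at 1.76-fold, 1.80-fold and 1.92-fold, and with lower Klf15, at 0.475-fold, each without overlap between the groups. The model of all 14 libraries called 0 of the 10 members and 0% of all genes, while 3 members and 21% of genes had an unadjusted p below 0.05. The WT DSS values were 1620, 1175 and 1804 normalized counts for Klf3, 183, 181 and 193 for Klf7, and 860, 777 and 979 for Klf9. Each set lay above the WT water values given above, for Klf3 by the narrow step from 1170 to 1175. Klf15 had 13.8, 6.40 and 18.5 in WT DSS, below the lowest WT water library at 19.5.

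The log2 fold changes in WT were 0.82 (standard error 0.33, edgeR adjusted p = 0.183) for Klf3, 0.85 (0.26, 0.125) for Klf7, 0.94 (0.32, 0.139) for Klf9 and -1.07 (0.81, 0.457) for Klf15. DESeq2 on the WT libraries alone called Klf3 (adjusted p = 0.018), Klf7 (0.00269) and Klf9 (0.0217), with 13% of all genes, and edgeR on them called 0 members and 0% of genes. The groups did not overlap in 24.4% of all tested genes, against 4 of the 10 members. Within the prefix D, with 2 WT libraries on each side and no high mitochondrial share, the ratio of DSS to water was 1.59 for Klf3, 1.85 for Klf7, 1.44 for Klf9 and 0.377 for Klf15. Klf4 and Klf6 had fitted values of 0.34 (standard error 0.25) and 0.34 (0.17) with overlapping groups, and Klf10 had 0.24 (0.24), which turned to -0.15 without the libraries of high mitochondrial share.

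In the Smad4 KO mice, DSS went with lower Klf6 and Klf2, at 0.672-fold and 0.460-fold, and the groups did not overlap for these 2 members. Every KO DSS library had the prefix D and no KO water library did. DSS and prefix therefore cannot be told apart in this comparison, and no ratio within a prefix could be taken. Klf6 ran from 2243 to 3379 normalized counts in KO water and from 1713 to 2099 in KO DSS. Klf2 had 85.4, 101, 65.1 and 181 in KO water and 40.8, 58.2 and 49.8 in KO DSS. The steps between the groups were narrow, from 2243 to 2099 for Klf6 and from 65.1 to 58.2 for Klf2.

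The log2 fold changes in KO were -0.57 (standard error 0.18; edgeR adjusted p = 0.43) for Klf6 and -1.12 (0.42; adjusted p = 0.505) for Klf2. With 0 of the 10 members called, where 0.0661% of genes were, these were the 2 members with an unadjusted p below 0.05, against 8.4% of all tested genes. Groups did not overlap for 8.88% of all tested genes, so that 2 of 10 members stand beside that share. Without the library labelled KO water replicate 1 the same 2 members did not overlap, beside 13.7% of genes. The models of the KO libraries alone called 0 members, with 0.00661% of genes in edgeR and 0.447% in DESeq2. Klf3, Klf7 and Klf9 had -0.16 (standard error 0.33), 0.35 (0.26) and 0.15 (0.32) in KO, and their KO DSS values lay inside the range of KO water.

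The DSS responses of the 2 genotypes were then compared by their difference. In its KO part DSS and prefix cannot be told apart. Klf6 had the smallest p among the members: its response in KO was lower than that in WT by a log2 value of -0.91 (standard error 0.25; edgeR adjusted p = 0.643). Klf15, for which DSS went with lower counts in WT and higher fitted counts in KO (1.46, standard error 0.83), had a difference of 2.53 (standard error 1.17; edgeR adjusted p = 0.645). For Klf3, Klf9 and Klf7 the differences were -0.98 (0.47), -0.79 (0.46) and -0.50 (0.37), and for Klf10 it was 0.01 (0.34). Klf6 and Klf15 were the 2 members with an unadjusted p below 0.05, beside 7.5% of all tested genes. None of the 10 members was called, where 0.00661% of genes were, so that no DSS response of a member was shown to differ between the genotypes after adjustment.

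The group levels of the members that did not overlap somewhere can be read in order. For Klf6 the order was KO DSS (1850), WT water (2163), WT DSS (2740) and KO water (2752), with the last pair at 1 level and KO DSS within the range of WT water, whose replicate 4 had 1522. For Klf10 it was WT water (860.7), WT DSS (1026), KO water (1339) and KO DSS (1595). WT DSS lay below KO DSS without overlap, as the groups of 21.7% of all tested genes did in either direction. WT water overlapped WT DSS and KO water, and the KO groups overlapped each other. For Klf4, KO water (8334) and KO DSS (8415) lay next to each other, then WT water (9282), and WT DSS was highest (11780), while the water groups spanned 4924 to 12590. For Klf3, Klf7 and Klf9 WT water was lowest, and the other 3 groups overlapped. For Klf15 the order was KO water (5.54), WT DSS (12.9), KO DSS (16.2) and WT water (27.4), and WT water lay apart from KO water and WT DSS but overlapped KO DSS. For Klf2 it was KO DSS (49.6), WT DSS (59.4), WT water (68.7) and KO water (108), and the KO groups were the 1 pair without overlap.

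Around Klf15 and Klf9, DSS in KO went with 1 call among 12 tested clock genes and 1 among 9 glucocorticoid-induced genes. Here too DSS and prefix cannot be told apart. Over all tested genes 0.0661% were called. Npas2, a partner of the clock protein Bmal1, fell (-1.81, standard error 0.27, edgeR adjusted p = 0.0231). Per1, a glucocorticoid and clock target, rose (1.35, 0.24, 0.0482). EdgeR on the KO libraries alone called 1 gene in all, a higher one, and so not Npas2. Fits with 1 library left out called 3 to 11 genes in this comparison. Dbp, a clock output gene picked after its values were seen, ranged from 12.4 to 203 normalized counts in KO water, 638 to 858 in KO DSS, 38.5 to 1180 in WT water and 208 to 598 in WT DSS. Per the study's methods the mice were taken near midday, and the hour of each library is not given in the labels. Of the 9 tested surface colonocyte genes 7 were lower and 2 higher after DSS in KO, and of the 10 feedback genes of TGF-β and BMP all 10 were lower, with 0 called in each list. In WT, all 7 amino acid breakdown genes were lower after DSS (median log2 fold change -0.43, 0 called), and in KO 4 were higher and 3 lower.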

How the data were processed

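Whole-number counts per gene were deposited without normalization; the authors used HISAT2 for alignment to mm9 and featureCounts for counting. Of the 37680 genes, 37310 matched GENCODE mouse release M1, from which symbols and exon lengths were taken. The table was tested with the quasi-likelihood test of edgeR 4.0.16 on all 14 libraries in 1 model of 4 groups, with TMM normalization, genes of at least 10 counts in at least 3 libraries and Benjamini-Hochberg adjustment over all 15127 tested genes at 0.05. As alternatives, DESeq2 1.42.0, RLE scaling, unfiltered counts, fits restricted to the groups under comparison, a block for the prefix or the replicate number, and leave-one-out fits were run; models of the mitochondrial share, the calls of the other lists under each setting and ratios within prefix Z without 1 library were added after the data were seen. The code was tested on simulated data. The members and gene lists were chosen with earlier results of these data known. Named genes are all members and, per list, up to 4 genes, those called first and then the most abundant. Promoter sequences are RefSeq's on GRCm38.p6. R 4.3.3 and Python 3.11.15 were used. Depth limits Klf15, Klf2 and Klf7 most.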

Additional observations from a re-analysis of the deposited data

How the results depend on the processing

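The joint edgeR model called 1 member (Klf3, KO against WT on water), and RLE scaling and no filter gave the same count. For KO against WT on water, DESeq2 on all libraries called 4 (Klf3, Klf7, Klf10 and Klf15), the name prefix block 3 (Klf2, Klf9 and Klf10), the models without the libraries of high mitochondrial share 3 (Klf3, Klf7 and Klf9, also without the library labelled KO water replicate 1), and 0 were called by edgeR on the groups compared only, with or without that library, and with the mitochondrial share as covariate. For WT DSS against water DESeq2 on all libraries called 1 (Klf7), and DESeq2 on the groups compared only 3, as it did for KO against WT after DSS. Leaving out 1 library at a time gave 0 to 3 members for KO against WT on water and 0 to 2 for WT DSS against water: without KO water replicate 4 Klf3, Klf7 and Klf9 were called on water and Klf7 and Klf9 in WT, and without WT water replicate 2 Klf10 alone was called on water. The replicate numbers were not taken as pairs in the main model. The correlations of same-numbered deviations were -0.081 to 0.348, and only the water replicates 4, which share the prefix MP, exceeded 0.1. With so few libraries per group these values cannot decide whether libraries were paired. With the replicate block 5 members were called on water (Klf3, Klf7, Klf9, Klf10 and Klf15) and 0 elsewhere.

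Over all genes, the counts called in the order KO against WT after DSS, KO against WT on water, WT DSS against water, KO DSS against water and the difference of responses were 2, 1276, 0, 10 and 1. DESeq2 on all libraries gave 50, 2631, 814, 71 and 4, and DESeq2 on the groups compared only 496, 696, 1721 and 71. EdgeR on the groups compared only gave 113, 1, 0 and 1, and without the library labelled KO water replicate 1 it gave 13 and 1 for the KO water comparisons. No filter gave 7, 138 and 2 for KO against WT after DSS, WT DSS against water and the difference. The replicate block gave 2977 on water and 6 for KO DSS against water, and the prefix block 1, 2018, 2 and 1. Without the libraries of high mitochondrial share the counts were 5, 2369, 35, 26 and 30, without the library labelled KO water replicate 1 as well 29, 3898, 115, 424 and 776, and with the share as covariate 8 on water. Single libraries left out gave 0 to 8, 4 to 4107, 0 to 529, 3 to 11 and 1 to 5.

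Fitted values that changed sign, none of them called in the joint model, were as follows; among them Klf2 on water (0.63), Klf5 on water (0.37), Klf10 in KO (0.25) and Klf4 and Klf5 in the difference of responses (-0.33 and -0.38) lay further from 0 in the joint model. Under the replicate block they were Klf5 after DSS between genotypes (0.012), Klf13 in WT (-0.013), Klf4, Klf5 and Klf9 in KO (-0.15, -0.13 and -0.087) and Klf10 in the difference of responses (-0.081). Under the prefix block they were Klf5 and Klf9 after DSS (0.16 and 0.048), Klf4 and Klf5 on water (0.064 and -0.081), Klf10 in WT (-0.12), Klf3, Klf4, Klf9 and Klf10 in KO (0.33, -0.45, -0.29 and -0.64), and Klf5 and Klf10 in the difference (0.24 and -0.52). On the groups alone without the library labelled KO water replicate 1, Klf13 in KO was 0.033. Without the libraries of high mitochondrial share, Klf2 on water was -0.13 (-0.14 without the library labelled KO water replicate 1 as well), Klf10 in WT -0.15 in both, Klf4 in KO -0.028, Klf5 in KO -0.18 (-0.16), Klf9 in KO -0.085 (-0.027), and Klf4 in the difference 0.035 in the second. With the share as covariate, Klf10 and Klf13 in WT were -0.11 and -0.066, and Klf4, Klf5 and Klf9 in KO -0.10, -0.023 and -0.011. With 1 library left out, the ranges that crossed 0 were, after DSS between genotypes, -0.050 to 0.25 for Klf3, -0.19 to 0.16 for Klf5, -0.12 to 0.048 for Klf9, -0.058 to 0.14 for Klf13 and -0.0022 to 0.67 for Klf15; on water, -0.37 to 0.037 for Klf4; in WT, -0.45 to 0.012 for Klf2 and -0.0098 to 0.23 for Klf13; in KO, -0.41 to 0.18 for Klf3, -0.12 to 0.15 for Klf4, -0.19 to 0.24 for Klf5, -0.094 to 0.30 for Klf9 and -0.16 to 0.027 for Klf13; and -0.24 to 0.19 for Klf10 in the difference. The cause of these changes was not tested.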

Other observations

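The genes whose log2 CPM followed a member most closely over the 14 libraries were taken as the highest of all tested genes, and the correlations are a description without a p, since the libraries share groups, depth and mitochondrial share. Klf3 was followed by Glg1 (Pearson r = 0.975, Spearman rho = 0.916), Klf9 by Camk1d (0.985 and 0.859), and Klf7 by Lss (0.951 and 0.908). Klf4 was followed by Gnb1 (0.933 and 0.938), Klf5 by Myo10 (0.939 and 0.916), and Klf6 by Pacsin2 (0.887 and 0.833), the lowest first match of the members. For Klf10 the first was 5730403B10Rik (0.927 and 0.864), for Klf2 Lhfpl4 (0.915 and 0.931), for Klf13 Pxk (0.903 and 0.64), and for Klf15 Fkbp7 (0.937 and 0.793).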
